A study of Mus musculus with 6 samples.

Results

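Collagens are the main structural proteins of the aortic wall, and each is a trimer of chains, which come from a single gene or from several. Fibrillar collagens (types I, II, III, V, XI, XXIV and XXVII) form the banded fibrils that bear load, and FACIT collagens (fibril-associated collagens with interrupted triple helices) sit on the surface of those fibrils. Network collagens include type IV, the sheet of every basement membrane, beaded collagen VI forms microfibrils between cells and fibrils, and the remaining chains include the multiplexins Col15a1 and Col18a1 of basement membrane zones and several transmembrane collagens. The members are the protein-coding genes of the deposited table whose symbol has the form of a collagen chain, 44 of the 55487 genes in the table, which were sorted into 11 fibrillar, 9 FACIT, 9 network, 6 beaded and 9 other chains. The counts were compared between aortas of Prdm16 iSM KO and control mice, a comparison made to find which genes change when smooth muscle cells (SMCs) lose Prdm16, a transcriptional regulator with zinc fingers.

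RNA was taken from the aortas of 3 iSM KO and 3 control male C57BL/6 mice. Both groups carried the tamoxifen-inducible Myh11-CreERT2 transgene, which is expressed in SMCs and lies on the Y chromosome, so only males could be studied. The iSM KO mice were homozygous for a Prdm16 allele with exon 9 between loxP sites and the control mice for the wild-type allele (WT in the labels). All mice received tamoxifen from 8 weeks of age, 1 mg a day for 10 days, after which 2 weeks of washout and 60 more days passed before tissue collection. The adventitia, the outer layer of the wall, was removed before extraction. Recombination was directed to SMCs by the transgene, and which cells of the remaining wall recombined was not measured in these counts. Nothing in the labels says that the samples of a group came from separate animals, although the study counts 3 mice in each group, and the p-values measure the spread between these samples.

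The libraries held 24911584 to 40460411 counts, and library sizes were scaled with TMM factors to give normalized counts (CPM). Prdm16 itself had 183, 223 and 179 CPM in the controls and 93.8, 113 and 79.8 CPM in the iSM KO aortas, a log2 fold change of -1.03 ± 0.14 (SE, n = 3 and 3, edgeR quasi-likelihood test, FDR = 0.00265). The groups did not overlap for the targeted gene, although reads of the exons outside exon 9 still count for it. The labelled tissue was borne out by 7 SMC markers, which summed to 22392 to 27357 CPM in the controls and 24004 to 26415 CPM in the iSM KO aortas, with 1 of 7 genes higher, Myocd (log2 fold change of 0.65, FDR = 0.0109). The summed markers of fibroblasts were 229 to 347 CPM in the controls and 159 to 226 CPM in the iSM KO aortas, with 9 of 10 tested genes negative and 1, Clec3b, past the threshold. Those of adipocytes were 13.7 to 140 and 4.47 to 9.12 CPM, highest in control 2, with 5 of 7 tested genes lower, and those of endothelial cells 342 to 584 and 194 to 479 CPM with 0 of 7 called. Macrophage markers summed to 28.0 to 32.6 and 11.6 to 35.2 CPM, striated muscle markers to 3.69 to 6.18 and 3.15 to 3.86 CPM, and Schwann cell markers to 3.98 to 6.60 and 3.93 to 8.68 CPM, with 0 genes called in each list. In bulk tissue, fewer cells of a type and less RNA per cell cannot be told apart.

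Of the 44 chain genes, 32 were tested, those whose counts exceeded 10 in every sample of 1 or both groups. At a false discovery rate (FDR) under 0.05, 7 chains were higher and 2 were lower in the iSM KO aortas, where 4.26% of the 16565 genes tested were higher and 3.3% were lower. The 7 were the FACIT chains Col14a1, Col12a1 and Col16a1, the basement membrane chains Col4a1, Col4a2 and Col4a6, and the collagen VI chain Col6a3. The 2 were the fibrillar chain Col3a1 and the multiplexin Col18a1. Col14a1, Col12a1 and Col3a1 also passed the 2-fold threshold that the study used, which 2.78% of the genes tested did. Called in either direction were thus 9 of 32 chains and 7.56% of all genes tested. The median log2 fold change was 0.17 over the 32 chains and -0.014 over all genes tested, and 21 of the chains had a positive value, against 47.6% of all genes. The groups did not overlap in normalized count for 15 of the 32 chains and for 27.9% of all genes tested.

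**Figure D1:**
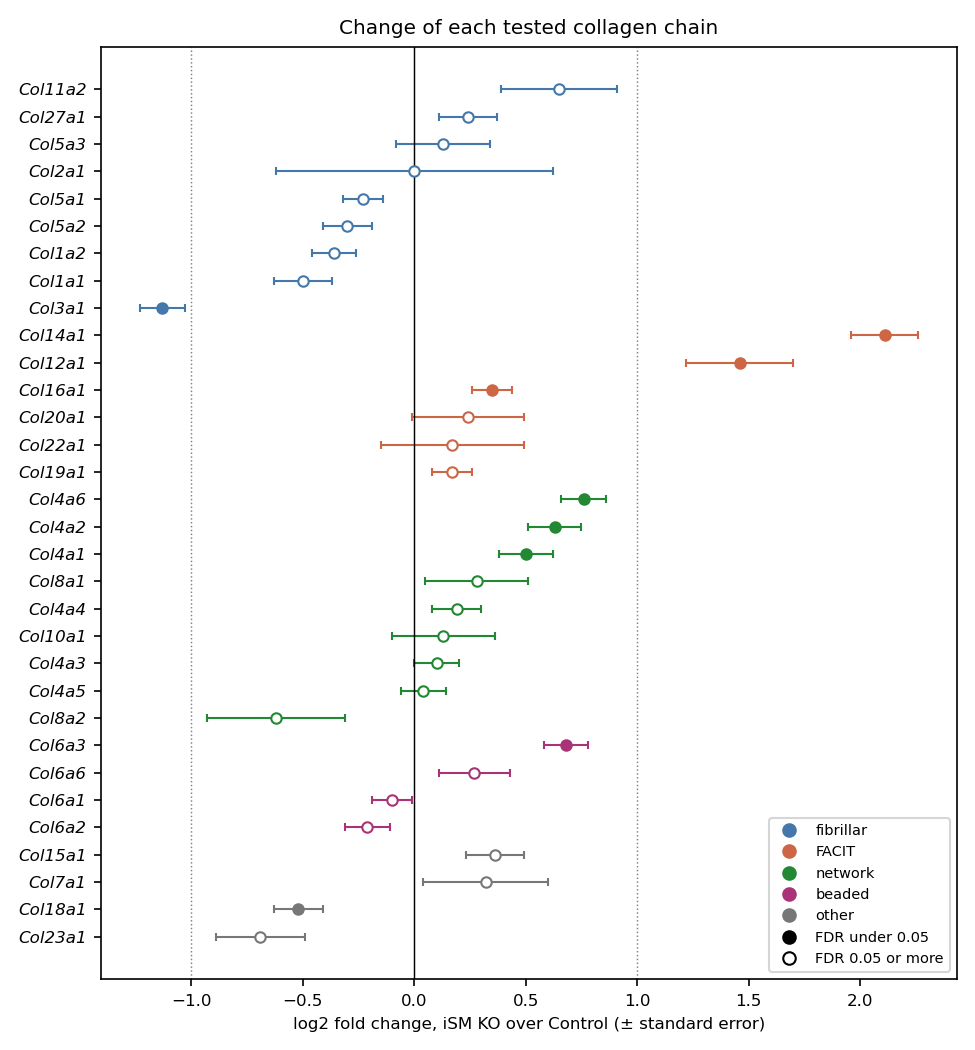
Log2 fold change of the 32 tested collagen chains in iSM KO over control aortas (x axis, points with bars of 1 standard error), ordered by class, with filled points for an FDR under 0.05 and dotted lines at 2-fold. The 6 FACIT points lie on the positive side, Col3a1 stands apart from the other fibrillar chains at -1.13, and the filled points within the network class are 3 chains of type IV.

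The 9 tested fibrillar chains had a median log2 fold change of -0.23, with 1 lower, 0 higher, and 6 negative values. The 6 tested FACIT chains had a median of 0.30, with 3 higher and 6 positive values. The 9 network chains had a median of 0.19, with 3 higher and 8 positive values, and the 4 tested beaded chains one of 0.09, with 1 higher. The 4 tested other chains had a median of -0.10, with 1 lower. The medians and the calls of the classes thus differ in sign between fibrillar chains on the one hand and FACIT and network chains on the other, and no test between classes was made.

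The total count of collagen chains was similar while its makeup by class was not. All chains together had 10011, 11625 and 11543 CPM in the controls and 11571, 11345 and 10501 CPM in the iSM KO aortas, and the groups overlapped. The sums were dominated by a few highly expressed genes, so that each class sum describes its most abundant members. Fibrillar chains summed to 4134 ± 396 CPM in the controls (SD, n = 3) and 2875 ± 153 CPM in the iSM KO aortas (SD, n = 3). Network chains summed to 2920 ± 271 and 4163 ± 234 CPM, and they exceeded the fibrillar sum in every iSM KO library and in no control library. FACIT chains summed to 161 ± 14.6 and 500 ± 29.5 CPM, the class with the fewest counts in both groups. Beaded chains summed to 1273 ± 109 and 1524 ± 66.0 CPM, and the other chains to 2571 ± 253 and 2076 ± 87.8 CPM. Within each of the 5 classes the control and iSM KO sums did not overlap. Divided by exon length first, the sums of the fibrillar chains were 401, 459 and 495 CPM per kb in the controls and 329, 317 and 296 CPM per kb in the iSM KO aortas. On the same scale the network sums were 362, 433 and 425 CPM per kb in the controls and 603, 597 and 541 CPM per kb in the iSM KO aortas. The beaded sums overlapped on this scale, with 158, 183 and 159 CPM per kb in the controls and 189, 187 and 172 CPM per kb in the iSM KO aortas.

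**Figure D2:**
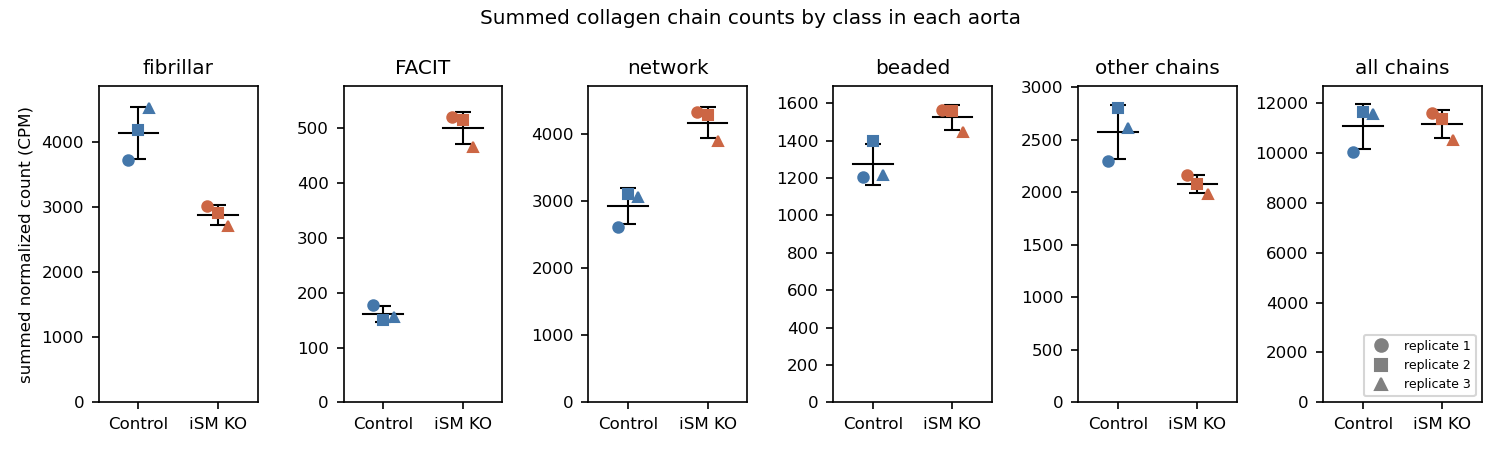
Summed normalized counts (CPM, y axes from 0) of the chains of each class and of all 44 chains in every library, with points for libraries and lines and bars for the mean ± SD of 3. Fibrillar and other chains sit lower and FACIT, network and beaded chains higher in the iSM KO aortas, while the sums over all chains overlap.

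The sequences upstream of 3 members are shown as a description. Col3a1 was the lower fibrillar chain, and Col4a6 and Col4a5 start next to each other and differed in their change. A link between the sequences and the changes was not tested. The sequences are from RefSeq on GRCm38.p6, the build of the deposited counts, and read 5′ to 3′ on the strand of the gene. The Col3a1 bases lie at chr1:45311288-45311537 on the plus strand, those of Col4a6 at chrX:141474077-141474326 on the minus strand, and those of Col4a5 at chrX:141475169-141475384 on the plus strand. Capitals mark a TATA box, searched as the letters TATAAA, and a CCAAT box, searched as its own letters. They also mark a GC box, searched as the letters GGGCGG. Both strands were searched, and matches of these motifs did not overlap in the stretches shown.
Col3a1: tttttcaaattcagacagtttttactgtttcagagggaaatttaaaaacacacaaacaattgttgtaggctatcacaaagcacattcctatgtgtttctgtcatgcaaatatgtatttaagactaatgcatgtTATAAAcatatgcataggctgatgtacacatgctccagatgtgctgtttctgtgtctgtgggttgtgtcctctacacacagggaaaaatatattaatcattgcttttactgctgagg
Col4a6: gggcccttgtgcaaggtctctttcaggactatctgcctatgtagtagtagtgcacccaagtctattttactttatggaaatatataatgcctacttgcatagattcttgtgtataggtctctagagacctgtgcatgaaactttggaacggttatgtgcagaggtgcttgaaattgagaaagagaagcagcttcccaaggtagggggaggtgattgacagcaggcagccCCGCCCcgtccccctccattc
Col4a5: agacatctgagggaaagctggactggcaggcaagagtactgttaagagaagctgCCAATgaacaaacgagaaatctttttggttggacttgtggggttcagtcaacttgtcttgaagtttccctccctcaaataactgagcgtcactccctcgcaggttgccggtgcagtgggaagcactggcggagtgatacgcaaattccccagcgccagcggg
The Col3a1 stretch holds 1 TATA box and a GC content of 35.2%, that of Col4a6 holds 1 GC box, and the stretch of Col4a5 shown holds 1 CCAAT box. The Col4a5 stretch was ended after 216 bases, where the first exon in GENCODE begins, and the full 250 bases before the RefSeq start also hold 1 GC box, so both neighbours have one. The promoter table used here held 35 of the 44 genes, which gave 38 start sites, and the 250 bases before them held a GC box in 22, a CCAAT box in 13 and a TATA box in 5. Over all 32851 start sites in the table the shares were 32.7%, 33.8% and 12.4%. The 9 genes not matched in it were Col14a1, Col12a1, Col1a1, Col5a2, Col4a3, Col2a1, Col22a1, Col9a3 and Col26a1. The first exons of Col4a1 and Col4a2, which are read in opposite directions, share 22 bases at chr8:11312805-11312826, shown on the plus strand because a read within them cannot be assigned without strand, and they hold a GC box, in capitals.
Col4a1 and Col4a2 shared bases: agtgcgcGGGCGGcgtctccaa
These 22 bases are 0.295% of the exon length of Col4a1 and 0.332% of that of Col4a2.

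Among the fibrillar chains, Col3a1 (ENSMUSG00000026043, chromosome 1, 45311538 to 45349706), the single chain of type III collagen, which forms fibrils together with type I in extensible tissues such as arteries, was lower in the iSM KO aortas. It had 1013, 1122 and 1117 CPM in the controls and 535, 502 and 454 CPM in the iSM KO aortas. Every iSM KO library was below every control library. The log2 fold change was -1.13 ± 0.10 (SE, n = 3 and 3, edgeR FDR = 0.000329), 0.458 times the control level, and it ranged from -1.18 to -1.07 when single libraries were left out, past the threshold in 6 of 6 such fits.

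The chains of type I collagen, the most abundant fibril former of the body, did not pass the threshold. Col1a1, its α1 chain, had 753, 966 and 1078 CPM in the controls and 689, 657 and 633 CPM in the iSM KO aortas, with a log2 fold change of -0.50 ± 0.13 (SE, edgeR FDR = 0.0532). The groups did not overlap, but the controls were spread and control 1 lay close to the iSM KO aortas. Without control 1 the value was -0.62 and the FDR 0.00965. Col1a2, the α2 chain, had 1137, 1190 and 1353 CPM against 993, 975 and 907 CPM, a log2 fold change of -0.36 ± 0.10 (SE, FDR = 0.0695), again with groups that did not overlap. DESeq2 and the fit without a filter on low counts called both chains lower, and limma-voom called Col1a2.

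Type V collagen is built into type I fibrils and is known to set their diameter. Col5a1 had 564, 603 and 649 CPM in the controls and 542, 520 and 481 CPM in the iSM KO aortas, with a log2 fold change of -0.23 ± 0.09 (SE, FDR = 0.179). Col5a2, which lies 24614 bp from Col3a1 in the opposite orientation, had 215, 268 and 274 CPM against 210, 213 and 192 CPM, with a log2 fold change of -0.30 ± 0.11 (SE, FDR = 0.136). Neither chain showed overlapping groups, and neither passed the threshold with all 6 libraries, while Col5a2 did without control 1 (-0.40, FDR = 0.0339). Col5a1 shares 99 and 113 bp of exon with 2 genes on the other strand, which had means of 106 and 46.9 counts. A small part of the Col5a1 counts may belong to them if strand was not used.

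The other tested fibrillar chains were far lower in level and did not pass the threshold. Col27a1 had 22.8 to 30.9 CPM in the controls and 30.0 to 36.5 CPM in the iSM KO aortas, with a log2 fold change of 0.24 ± 0.13 (SE, FDR = 0.302). Col11a2 had 1.59 to 3.14 CPM and 3.04 to 3.95 CPM, with a log2 fold change of 0.65 ± 0.26 (SE, FDR = 0.186). Col5a3 had 1.76 to 2.19 CPM and 1.97 to 2.44 CPM. Col2a1, the chain of cartilage collagen, had 0.806, 0.703 and 2.98 CPM in the controls and 1.06, 0.831 and 2.44 CPM in the iSM KO aortas, with 1 library of each group above the rest. Beside that low level, some cartilage genes other than collagens were present and lower: the 7 chondrocyte markers summed to 114 to 126 CPM in the controls and 43.3 to 50.3 CPM in the iSM KO aortas. Most of this sum was Acan, the large proteoglycan of cartilage and of the arterial wall, with 73.0 to 83.7 CPM in the controls. Acan was lower by a log2 fold change of -1.25 ± 0.10 (SE, FDR = 0.000206), and Sox9, Comp and Hapln1 were also lower. Matn1 was at 0 in all libraries, and Matn3 and Cnmd had at most 5 and 1 counts in a library. The part of these genes in the collagen results was not tested.

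The largest fold change among the 32 tested chains was in the FACIT class. Col14a1 (ENSMUSG00000022371, chromosome 15, 55307750 to 55520803), whose product binds the surface of type I fibrils, had 116, 77.2 and 86.0 CPM in the controls and 422, 411 and 373 CPM in the iSM KO aortas. The lowest iSM KO library was well above the highest control. Its log2 fold change was 2.11 ± 0.15 (SE, n = 3 and 3, edgeR FDR = 9.33e-05), 4.32 times the control level, and single libraries left out moved it between 1.99 and 2.31.

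Col12a1 (ENSMUSG00000032332, chromosome 9, 79598991 to 79718831), the closest relative of Col14a1 and likewise a fibril surface collagen, had 6.90, 14.7 and 9.94 CPM in the controls and 29.5, 32.9 and 25.1 CPM in the iSM KO aortas. All iSM KO libraries were above all controls, although the controls differed from each other by more, relative to their mean, than the iSM KO aortas did. The log2 fold change was 1.46 ± 0.24 (SE, FDR = 0.00682), 2.76 times the control level, and it stayed past the threshold in 6 of 6 fits without single libraries.

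Col16a1, a FACIT chain found in several tissues, had 26.5, 24.0 and 28.4 CPM in the controls and 33.2, 32.7 and 34.8 CPM in the iSM KO aortas. All iSM KO libraries were above the highest control, and the log2 fold change of 0.35 ± 0.09 (SE, FDR = 0.0441) was the smallest of the 9 that passed the threshold. It passed in 1 of 6 fits with a library left out: the FDR was 0.0725 without control 1, 0.0741 without control 2, 0.128 without iSM KO 1, 0.148 without iSM KO 2 and 0.132 without iSM KO 3. Col19a1 had 25.8 to 31.0 CPM in the controls and 29.7 to 33.2 CPM in the iSM KO aortas, with a log2 fold change of 0.17 ± 0.09 (SE, FDR = 0.334). Col20a1 and Col22a1 were at 1.64 to 2.47 and 0.859 to 1.34 CPM in the controls, with log2 fold changes of 0.24 ± 0.25 and 0.17 ± 0.32 (SE), and their groups overlapped. Col20a1, with 39 to 99 counts in a library, shares 79 bp of exon with a gene on the same strand that had a mean of 241 counts. Part of the Col20a1 counts may belong to that gene. The 3 chains of type IX collagen, the FACIT of cartilage, were not tested.

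**Figure D3:**
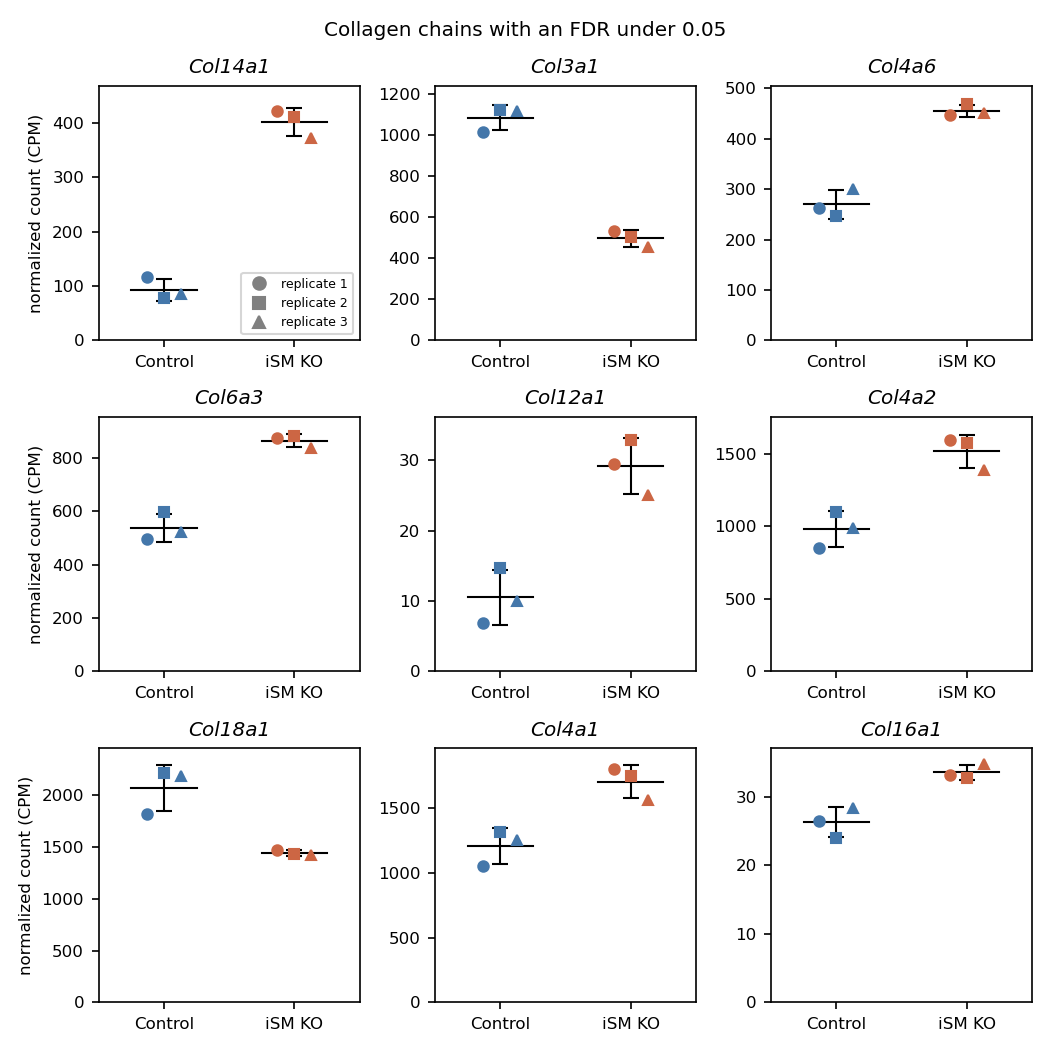
Normalized counts (CPM, y axes from 0) of the 9 chains with an FDR under 0.05 in each control and iSM KO library, with lines and bars for the mean ± SD of 3. The groups do not overlap in any panel, Col14a1 and Col12a1 have the largest increases, and Col3a1 and Col18a1 are the panels in which the iSM KO points are lower.

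The network class divided within type IV collagen. Type IV chains assemble as trimers of α1 and α2, of α3, α4 and α5, or of α5 and α6, of which the α5 and α6 form is known from the basement membranes of smooth muscle. Col4a1 had 1055, 1319 and 1259 CPM in the controls and 1806, 1752 and 1563 CPM in the iSM KO aortas. All iSM KO libraries were above the controls, and the log2 fold change was 0.50 ± 0.12 (SE, FDR = 0.0353). It passed the threshold without control 2 or iSM KO 3 but not without the others, with an FDR of 0.0726 without control 1, 0.0655 without control 3, 0.140 without iSM KO 1 and 0.157 without iSM KO 2. Col4a2, the partner of Col4a1 in the same trimer and its head-to-head neighbour on chromosome 8, had 854, 1102 and 991 CPM in the controls and 1593, 1575 and 1388 CPM in the iSM KO aortas. The groups were again apart, with a log2 fold change of 0.63 ± 0.12 (SE, FDR = 0.0139) that missed the threshold without iSM KO 1 (FDR = 0.0652) and without iSM KO 2 (FDR = 0.0808).

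Col4a6 (ENSMUSG00000031273, chromosome X, 141165403 to 141474076), the α6 chain, had 262, 246 and 301 CPM in the controls and 446, 469 and 451 CPM in the iSM KO aortas. Its iSM KO libraries lay close together and above every control, with a log2 fold change of 0.76 ± 0.10 (SE, n = 3 and 3, edgeR FDR = 0.00201), which passed the threshold in 6 of 6 fits with a library left out. Col4a5, the α5 chain that shares the α5 and α6 trimer, starts 1308 bp away on the other strand. It had 300.0, 299 and 363 CPM in the controls and 340.0, 337 and 312 CPM in the iSM KO aortas, with groups that overlapped and a log2 fold change of 0.04 ± 0.10 (SE, FDR = 0.849). The ratio of Col4a6 to Col4a5 counts, a pair added after the values of both were seen and therefore given without a test, was 0.872, 0.823 and 0.829 in the controls and 1.31, 1.39 and 1.44 in the iSM KO aortas. Each iSM KO library was above every control in this ratio.

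Col4a3 and Col4a4, the chains of the basement membrane of the kidney glomerulus, also lie head to head, 71 bp apart on chromosome 1, and had little change. Col4a4 had 64.2 to 72.9 CPM in the controls and 68.7 to 92.6 CPM in the iSM KO aortas, with a log2 fold change of 0.19 ± 0.11 (SE, FDR = 0.375). Col4a3 had 39.9 to 44.5 and 39.8 to 51.0 CPM, with a log2 fold change of 0.10 ± 0.10 (SE, FDR = 0.584). Of the short-chain network collagens, Col8a1, a chain of the type VIII collagen of vessel walls, had 21.1, 25.7 and 17.3 CPM in the controls and 17.6, 26.3 and 34.1 CPM in the iSM KO aortas, a log2 fold change of 0.28 ± 0.23 (SE, FDR = 0.515). Its partner Col8a2 had 1.28 to 2.56 and 0.917 to 1.34 CPM, with a log2 fold change of -0.62 ± 0.31 (SE, FDR = 0.281), the one negative value of the class. Col10a1, the chain of hypertrophic cartilage, had 1.95 to 2.98 and 2.26 to 2.64 CPM. It shares 18 bp of exon with Nt5dc1 on the other strand, which had a mean of 258 counts.

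In beaded collagen VI, a trimer of α1, α2 and a further chain that is most often α3, only Col6a3 of the 4 tested chains passed the threshold. Col6a3 (ENSMUSG00000048126, chromosome 1, 90765923 to 90843971) had 496, 596 and 523 CPM in the controls and 874, 882 and 837 CPM in the iSM KO aortas. Each iSM KO library was above each control, with a log2 fold change of 0.68 ± 0.10 (SE, n = 3 and 3, edgeR FDR = 0.00359) that passed the threshold in 6 of 6 fits with a library left out. Col6a1 had 292, 337 and 304 CPM in the controls and 303, 297 and 268 CPM in the iSM KO aortas, overlapping groups and a log2 fold change of -0.10 ± 0.09 (SE, FDR = 0.545). Col6a2, 85161 bp from Col6a1 on the same strand of chromosome 10, had 409, 460 and 379 CPM against 377, 372 and 333 CPM. Its groups were barely apart, and its log2 fold change was -0.21 ± 0.10 (SE, FDR = 0.266). Col6a6, a chain that can take the place of α3, had 5.93 to 8.93 and 8.51 to 9.77 CPM, with a log2 fold change of 0.27 ± 0.16 (SE, FDR = 0.357). Its transcripts share a stretch of 572 bp at 96.853% identity with Col6a5, so reads of these genes may not have been told apart.

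Among the other chains, Col18a1 (ENSMUSG00000001435, chromosome 10, 77052178 to 77166548), the multiplexin whose C-terminal fragment is endostatin, was lower. It had 1818, 2217 and 2184 CPM in the controls and 1475, 1432 and 1426 CPM in the iSM KO aortas. The iSM KO libraries lay within a narrow band below all controls, and the log2 fold change was -0.52 ± 0.11 (SE, FDR = 0.0212), 0.697 times the control level. The call held without any single control but not without an iSM KO library, with an FDR of 0.0814 without iSM KO 1, 0.114 without iSM KO 2 and 0.0605 without iSM KO 3. Col15a1, the other multiplexin, had 469, 567 and 419 CPM in the controls and 678, 642 and 548 CPM in the iSM KO aortas. Its groups overlapped at control 2, and its log2 fold change was 0.36 ± 0.13 (SE, FDR = 0.144), which became 0.49 with an FDR of 0.0436 without control 2. Col23a1, a transmembrane collagen, had 10.7, 13.3 and 9.27 CPM against 5.30, 6.56 and 8.87 CPM, a log2 fold change of -0.69 ± 0.20 (SE, FDR = 0.0795). Col7a1, the chain of anchoring fibrils, had 0.866 to 1.35 and 1.12 to 1.55 CPM.

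The 12 chains under the filter were Col9a1, Col9a2, Col9a3, Col11a1, Col24a1, Col6a4, Col6a5, Col13a1, Col17a1, Col25a1, Col26a1 and Col28a1. None of them had more than 24 counts in a library, and their changes were not tested in the main fit. Among them, Col6a4 and Col6a5 reached 17 counts each in control 2.

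Levels of different genes were compared per kb of exon. Col18a1 had the highest mean of all chains in the controls, 295 ± 31.6 CPM per kb (SD, n = 3), ahead of Col4a1 at 162 ± 18.6, Col4a2 at 148 ± 18.8 and Col1a1 at 142 ± 25.1 CPM per kb, and the libraries of the last 3 genes overlapped in level. In the iSM KO aortas Col4a1 had 229 ± 17.1, Col4a2 229 ± 17.2 and Col18a1 206 ± 3.84 CPM per kb (SD, n = 3). The ranges of these 3 genes met in the iSM KO aortas, and with the longest transcript as the length the means were 258, 235 and 258 CPM per kb, so their order is not fixed. Among the fibrillar chains, Col1a1 had the highest mean in both groups, and Col3a1 went from 110 ± 6.24 to 50.6 ± 4.19 CPM per kb, below Col1a2 at 77.1 ± 3.66 and Col5a1 at 60.6 ± 3.65 CPM per kb. Col14a1 went from 13.3 ± 2.89 to 57.3 ± 3.68 CPM per kb, beside Col4a6 at 57.1 ± 1.52 CPM per kb in the iSM KO aortas. Col12a1 went from 0.691 ± 0.259 to 1.91 ± 0.258 CPM per kb and remained far below Col14a1 in both groups. In the beaded class Col6a1 had the highest mean in the controls, 71.0 ± 5.26 CPM per kb, and Col6a3 in the iSM KO aortas, 72.3 ± 1.99 CPM per kb. These orders depend on the length used: with the longest transcript in place of all exons, Col1a2 had the highest mean of the fibrillar chains in both groups (229 and 179 CPM per kb), and Col3a1 at 89.3 CPM per kb lay above Col5a1 at 61.2 CPM per kb in the iSM KO aortas. In the controls Col18a1 was still highest at 371 CPM per kb. Col1a2 and Col3a1, the latter at 195 CPM per kb, then lay above Col4a1 at 183 and Col4a2 at 152 CPM per kb. Col6a2 then had the highest control mean of the beaded chains.

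**Figure D4:**
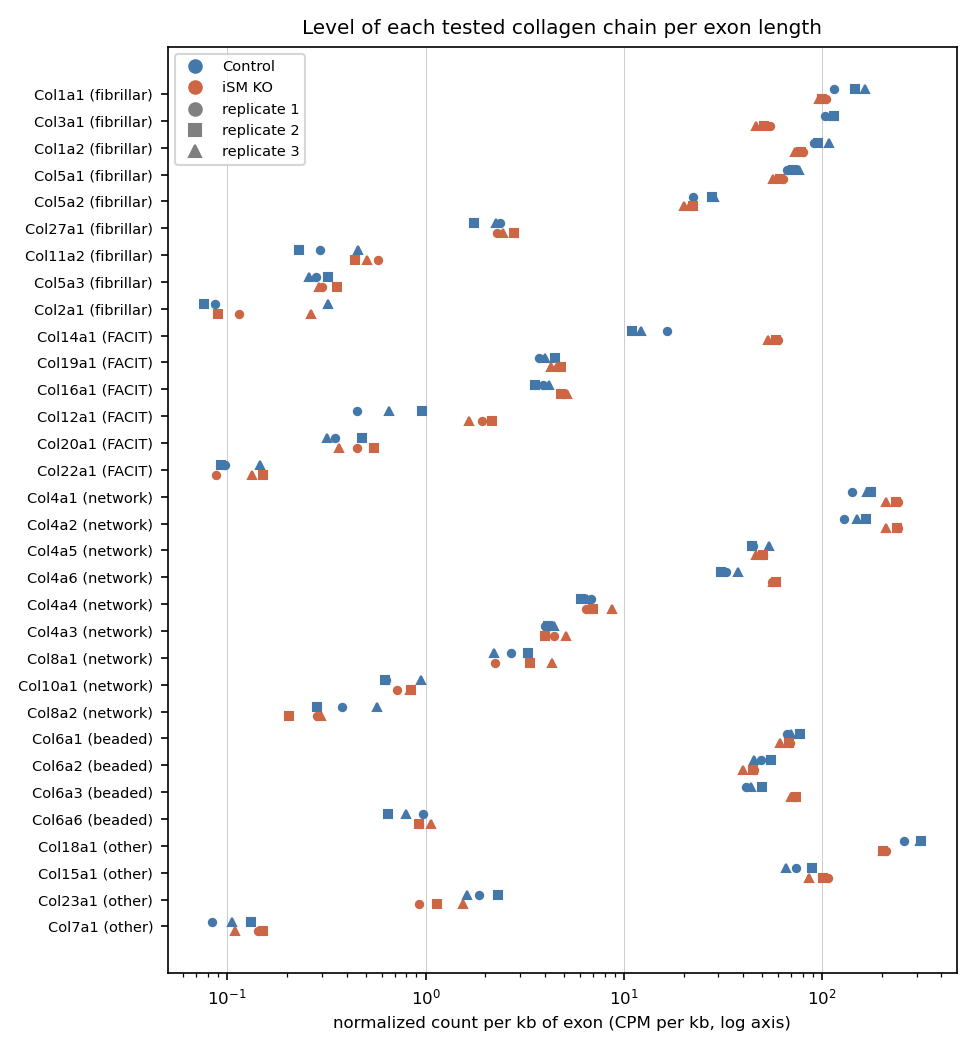
Normalized count per kb of exon (log x axis) of each tested chain in the 3 control and 3 iSM KO libraries, grouped by class and ordered by the control mean. Levels span from about 0.1 to over 200 CPM per kb, and in the iSM KO aortas Col4a1 and Col4a2 lie level with or above Col18a1 while Col14a1 moves away from the other FACIT chains.

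Ratios of 2 chains within a library do not depend on its scaling, and they were compared for 9 pairs of chains that form a trimer or fibril together or are close relatives. Counts were divided without regard to length, so a ratio is read only between libraries. The ratio of Col3a1 to Col1a1 was 1.35, 1.16 and 1.04 in the controls and 0.777, 0.764 and 0.716 in the iSM KO aortas, a log2 difference of -0.64 ± 0.11 (SE, n = 3 and 3). The ratio of Col6a3 to Col6a1 was 1.70, 1.77 and 1.72 in the controls and 2.88, 2.97 and 3.13 in the iSM KO aortas, a log2 difference of 0.79 ± 0.039 (SE) in which both groups were tight. The ratio of Col18a1 to Col15a1 was 3.88, 3.91 and 5.21 against 2.18, 2.23 and 2.60, a log2 difference of -0.88 ± 0.16 (SE). The ratio of Col4a2 to Col4a1 was 0.810, 0.836 and 0.787 against 0.882, 0.899 and 0.888, a log2 difference of 0.13 ± 0.026 (SE), small but without overlap. For these 4 pairs the groups were apart, and a two-sided exact permutation test gave p = 0.1 for each, the smallest value that 3 against 3 samples allow (0.225 after Benjamini-Hochberg adjustment over the 9 pairs). This exact test therefore cannot reach a p of 0.05 for a ratio with 3 samples a group.

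In the remaining 5 pairs the groups overlapped. The ratio of Col1a2 to Col1a1 differed by 0.13 ± 0.095 on the log2 scale (SE, exact permutation p = 0.4), that of Col5a2 to Col5a1 by -0.06 ± 0.069 (p = 0.5, exact permutation), and that of Col6a2 to Col6a1 by -0.10 ± 0.051 (p = 0.2, exact permutation). The chains of type I, of type V and the shorter chains of type VI thus had ratios that overlapped between the groups. The ratio of Col14a1 to Col12a1 was 16.8, 5.24 and 8.65 in the controls and 14.3, 12.5 and 14.9 in the iSM KO aortas, a difference of 0.60 ± 0.49 (SE, exact permutation p = 0.4), with most of the spread among the controls. That of Col8a2 to Col8a1 differed by -0.86 ± 0.56 (SE, exact permutation p = 0.2). Without control 1, the groups were apart in 7 of the 9 pairs, although leaving out a library can only keep or raise this number.

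**Figure D5:**
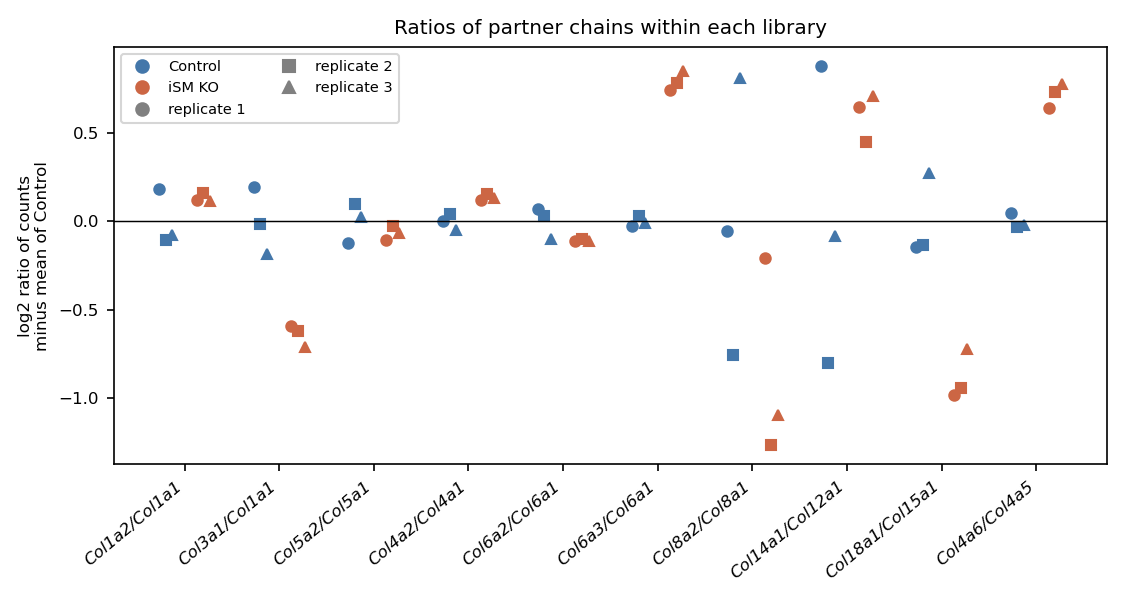
Log2 ratio of the counts of paired chains in each library, less the mean of the 3 controls for that pair (y axis), for the 9 pairs and the added pair Col4a6 and Col4a5. The iSM KO points are apart from the controls for Col3a1/Col1a1, Col4a2/Col4a1, Col6a3/Col6a1, Col18a1/Col15a1 and the added pair.

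A collagen chain is hydroxylated and folded in the endoplasmic reticulum, trimmed of its propeptides outside the cell, cross-linked, and then bound by surface proteins and cell receptors or cut by collagenases. Of 55 genes of these steps, 46 were tested, 7 were higher and 1 was lower, where 4.26% of all genes tested were higher, 3.3% lower and 7.56% called in either direction. Among 17 tested genes of chain modification and folding, 2 were higher and 11 had a negative value. P4ha1, a catalytic subunit of prolyl 4-hydroxylase, which stabilises the triple helix, had a log2 fold change of 0.52 ± 0.13 (SE, FDR = 0.0467). Plod2, the lysyl hydroxylase of the telopeptides, had 53.0, 56.2 and 54.8 CPM in the controls and 68.7, 70.1 and 68.4 CPM in the iSM KO aortas, a log2 fold change of 0.34 ± 0.07 (SE, FDR = 0.0176).

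The genes of propeptide removal moved in both directions. Adamts14, a procollagen N-proteinase, had 9.13, 10.5 and 10.4 CPM in the controls and 26.5, 33.6 and 22.3 CPM in the iSM KO aortas. The groups were far apart, with a log2 fold change of 1.45 ± 0.15 (SE, n = 3 and 3, edgeR FDR = 0.000835), past the threshold in 6 of 6 fits with a library left out. Adamts2, the main procollagen N-proteinase of skin, had 110, 89.4 and 85.8 CPM in the controls and 72.0, 69.9 and 69.5 CPM in the iSM KO aortas, a log2 fold change of -0.43 ± 0.10 (SE, FDR = 0.0329). Adamts3, a further member of the list, had a log2 fold change of -0.83 ± 0.24 (SE, edgeR FDR = 0.0759) and did not pass the threshold. The 2 called enzymes thus moved in opposite directions. None of the 5 cross-linking genes, the lysyl oxidases, passed the threshold. The 7 tested fibril surface partners, small proteoglycans such as Dcn and related proteins, all had negative values with a median log2 fold change of -0.65, and 0 passed the threshold, and 2 of them (Dpt and Lum) are also on the list of fibroblast markers, which had 9 of 10 negative values.

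Among 7 tested collagen receptors 3 were higher. Itga1, the α1 subunit of the integrin that binds type IV collagen, had 216, 221 and 217 CPM in the controls and 337, 329 and 276 CPM in the iSM KO aortas, with a log2 fold change of 0.53 ± 0.09 (SE, FDR = 0.0103). Ddr1, a receptor tyrosine kinase for collagens, had 76.6, 79.8 and 66.6 CPM against 98.0, 107 and 106 CPM, a log2 fold change of 0.48 ± 0.09 (SE, FDR = 0.0123). Both sets of iSM KO libraries lay above their controls. Mrc2, an endocytic receptor for collagen fragments, had a log2 fold change of 0.29 ± 0.07 (SE, FDR = 0.0434). Of 4 tested collagenases Mmp14, a membrane-bound enzyme that cuts fibrillar collagen, was higher, with a log2 fold change of 0.50 ± 0.13 (SE, FDR = 0.0489). The other 3 had negative values and did not pass the threshold, and the median of the 4 was -0.39. With a library left out, Ddr1 missed the threshold without iSM KO 2 (FDR = 0.0762) and Itga1 without iSM KO 1 (0.0549) or iSM KO 2 (0.0692). Plod2 missed it without any single iSM KO library, at an FDR of 0.0547 to 0.114. Adamts2, P4ha1 and Mmp14 passed in 2 of 6 fits and Mrc2 in 0 of 6, with FDRs of up to 0.136, 0.168, 0.164 and 0.158.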

How the data were processed

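Aortic RNA of 3 control and 3 iSM KO mice was sequenced after ribosomal depletion as paired reads of 150 bases. The authors mapped and quantified the reads with DRAGEN against Ensembl release 101 (mm10) and deposited estimated counts per gene, neither normalized nor filtered, of which 10.9% to 12.2% were not whole numbers. How reads of several genes were shared, and whether strand was used, is not given in the sources used here. No other values of the table were used.

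Counts were rounded, and a gene was kept if every sample of the controls, of the iSM KO mice or of both exceeded 10. The quasi-likelihood test of edgeR 4.0.16 (R 4.3.3) was fitted to all 6 libraries with TMM factors and the group as the only term, and p-values were adjusted by the Benjamini-Hochberg method over all genes kept. The count of 10 and the 2-fold threshold are those of the study. The standard error is the log2 fold change divided by the root of F. CPM used TMM-scaled totals, and levels per length the union of exons in GENCODE M21 on the same build, which placed 44 of 44 members. Shared sequence was searched with blastn 2.17.0, at least 95% identity over 100 bp. Ratios used a two-sided exact permutation test (SciPy 1.17.1). Between libraries of a group, counts differed by more than sampling noise (chi-square per degree of freedom of 12.1 to 70.5). Depth was 24911584 to 40460411 counts, which limits chains under about 10 counts.

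Named genes were every chain with an FDR under 0.05, Col14a1, Col12a1 and Col3a1, the chain with the highest level per length of each class, the chains of the ratio pairs, Prdm16, and the assembly genes with an FDR under 0.05. Other chains and markers were named to account for every member, and some assembly genes not called were named beside those called. All of these were chosen after their values were seen. The members, classes, gene lists and pairs were chosen with earlier results of these data known. Alternatives were DESeq2 1.42.0, limma-voom (limma 3.58.1), DESeq2 size factors in edgeR, TMM from protein-coding genes, no filter, filterByExpr, the replicate number as a block and each library left out. Data were simulated with 16565 genes, of which 200 in each set were changed by 2-fold or 4-fold. On these data edgeR recovered 65% of 2-fold and 93.2% of 4-fold changes, and 9.83% of its calls were false, above the nominal 5%. Smaller changes, such as those of Col4a1, Col4a2, Col16a1 and Col18a1, were not simulated.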

Additional observations from a re-analysis of the deposited data

How the results depend on the processing

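Col14a1, Col12a1, Col3a1, Col4a6 and Col6a3 kept their direction and their call under each of the 7 alternative fits and each of the 6 fits without a library, and the 3 chains past 2-fold did so too. No fold change or ratio recomputed in these fits turned its direction. Chains lower numbered 2, and 5 with DESeq2 or with no filter on low counts, where Col1a1, Col1a2 and Col23a1 were added. Assembly genes called numbered 8, and 13 with no filter. Without single libraries, chains higher ranged from 4 to 7, chains lower from 1 to 4, assembly genes called from 1 to 11, and pairs of chains with groups apart from 4 to 7. The number of pairs apart can only stay or rise when a library is left out, so its range does not measure stability. The lowest counts came without iSM KO 1 or iSM KO 2, where 4 chains were higher and 1 lower, and the counts of 7 pairs and 4 lower chains without control 1. The class leader by level per length was the same chain in 3 of 5 classes with the longest transcript. With the replicate number as a block, 5 chains were higher, 1 chain was lower and 3 assembly genes were called. Col4a1 (FDR = 0.0814), Col16a1 (FDR = 0.0917) and Col18a1 (FDR = 0.059) missed the threshold in this edgeR fit. It called 775 genes in all, against 1252 in the main fit. Deviations from the group means of same-numbered samples correlated at -0.132, -0.0455 and -0.107, and no sample correlated best with the sample of its own number. These values showed no pairing by the deposited numbers. The block uses the control numbers of the deposited counts, and the study also lists its controls in another order, under which no block was fitted. The causes were not tested. Chains under the filter on counts were not tested in the main fit.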
